A study of Arabidopsis thaliana with 69 samples.

Results

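This report describes 32 mature miRNAs of Arabidopsis thaliana that lie on the passenger arm of 32 loci of conserved miRNA families, among 427 mature miRNAs in the deposited small RNA tables. The members were named in a list and found by name in those tables; all 32 were present, and the rule itself used no measured value, although the list was drawn up with earlier results of these data known. Small RNAs had been sequenced from dcl1-5 globular embryos and from wild-type embryos of 8 stages, with 3 libraries per group: preglobular and globular, then early and late heart, early and late torpedo and bent cotyledon, then mature green. A single library each of floral buds and of rosette and cauline leaves was also deposited, both from wild-type plants. All plants were of the Col-0 accession and were grown under long days without a treatment. The dcl1-5 embryos carry a null allele of DICER-LIKE1 (DCL1), are lethal as homozygotes, and therefore come from dcl1-5/+ parents, among whose progeny the mutants are recognized by their abnormal shape. Each library was made from a pool of embryos, and replicates were collected from different embryos on different days. The study also made nanoPARE libraries, which sequence the 5' ends of RNAs and so detect cleavage products, from the embryonic groups and from roots and shoots of xrn4-5 seedlings, a mutant that lacks a cytoplasmic 5'-to-3' exonuclease.

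A plant miRNA is cut by DCL1 from the stem of a hairpin precursor as a duplex of paired strands. The strand known as the guide is retained in an ARGONAUTE (AGO) protein and directs the silencing of complementary transcripts, whereas the passenger strand, also called the star strand, is usually discarded. Because both strands leave the precursor together, the level of a passenger strand reflects both how much duplex was made and how long that strand outlived it. Passenger strand is used here for the arm opposite to that for which a family is known, whichever arm held more reads.

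The sequences of the passenger strands that the results turn on are given from 5' to 3', grouped by family, with bases 2 to 8 in capitals, the seed, which are compared because members of a family can share them. Sequences and positions are those of RefSeq for the TAIR10.1 assembly, in which all 32 members were found within their annotated MIR genes. The miR390 strands share their seed, GCUAUCC, and are followed by the guide that both loci encode, which is known to act through AGO7 on TAS3 transcripts.
miR390a-3p: cGCUAUCCauccugaguuuca
miR390b-3p: cGCUAUCCauccugaguucc
miR390a-5p: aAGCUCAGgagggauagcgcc
The first lies at chr2:16062023-16062043 on the plus strand within AT2G38325, and the second at chr5:23637034-23637053 on the plus strand within AT5G58465.

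The miR168 family, whose guide targets AGO1, has passenger strands with seeds that differ between the loci.
miR168a-3p: cCCGCCUUgcaucaacugaau
miR168b-3p: cCCGUCUUguaucaacugaau
These lie at chr4:10578737-10578757 on the plus strand (AT4G19395) and at chr5:18358803-18358823 on the minus strand (AT5G45307). For miR167, whose guide targets the auxin response factors ARF6 and ARF8, the passenger strands are shown with the guide of the miR167c locus, since miR167c-3p has the longest annotated sequence of the 32, at 23 bases.
miR167c-3p: uAGGUCAUgcugguaguuucacc
miR167a-3p: gAUCAUGUucgcaguuucacc
miR167c-5p: uAAGCUGCcagcaugaucuug
The first is at chr3:1306630-1306652 on the minus strand (AT3G04765) and the second at chr3:8108172-8108192 on the plus strand (AT3G22886).

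The next set comprises the strands of miR164, whose guide targets the CUC transcription factors, and of miR170/miR171, whose guide targets GRAS transcription factors. It is shown because miR170-5p and miR171a-5p are identical, whereas miR171c-5p differs from them and has longer reads.
miR164c-3p: cACGUGUUcuacuacuccaac
miR170-5p and miR171a-5p: uAUUGGCCugguucacucaga
miR171c-5p: aGAUAUUGgugcgguucaauc
They lie at chr5:9852747-9852767 (plus, AT5G27807), at chr5:26411635-26411655 (minus, AT5G66045) and chr3:19073452-19073472 (plus, AT3G51375), and at chr1:22930157-22930177 (minus, AT1G62035).

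The last set holds strands that were most abundant in leaf or were absent from some early embryos. Their guides target GRF transcription factors (miR396), auxin receptors (miR393), copper superoxide dismutases (miR398) and DCL1 itself (miR162).
miR396a-3p: gUUCAAUAaagcugugggaag
miR396b-3p: gCUCAAGAaagcugugggaaa
miR393b-3p: aUCAUGCGaucucuuuggauu
miR398b-5p and miR398c-5p: aGGGUUGAuaugagaacacac
miR162a-5p: uGGAGGCAgcgguucaucgauc
Their positions are chr2:4142331-4142351 (minus, AT2G10606), chr5:13611904-13611924 (plus, AT5G35407), chr3:20691778-20691798 (plus, AT3G55734), chr5:4691033-4691053 and chr5:4694705-4694725 (both plus, AT5G14545 and AT5G14565), and chr5:2634998-2635019 (minus, AT5G08185).

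Among the 32 passenger strands there were 28 distinct sequences and 26 seeds. Those of miR162a and miR162b, miR170 and miR171a, miR172b and miR172e, and miR398b and miR398c were identical, so their reads cannot be assigned to a locus by sequence. The strands began with G in 11 members, A in 8, C in 7 and U in 6. Their other arms began with U in 25 of 32 cases, and U was the first base of 241 of all 427 mature miRNAs. Of the 32 other arms, 22 shared their sequence with another locus.

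Depth bears on these strands because many were rare. Genome-matching reads ranged from 1665910 to 52374394 in the 24 wild-type embryo libraries, and numbered 30156110, 14395702 and 7505988 in the dcl1-5 libraries, 2889901 in floral bud and 687369 in leaf. Levels are given in RPM, the depth-scaled read number used by the authors, which here counts reads of 20 to 24 bases relative to all genome-matching reads. Preglobular replicate 3 stood apart, with 33 reads over all members together. In libraries made from decreasing amounts of bent cotyledon RNA (50, 5, 1 and 0.5 ng, 1 library each), 14, 11, 4 and 2 members reached 3 reads, at depths that also differed. In the same order, the members summed to 265, 140, 83.5 and 124 RPM, and their other arms to 9578, 8173, 7165 and 9025 RPM. The members made up 2.69%, 1.69%, 1.15% and 1.35% of the reads of both arms. Their level and share were thus lower at 5 ng or less than at 50 ng. The paper also describes bent cotyledon libraries made from a larger amount of RNA. The labels do not say whether those are the bent cotyledon libraries used here as a stage. The part of RNA amount in the differences between stages, and in strands without reads, was not tested.

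Passenger strands were a minor and uneven part of the embryonic miRNA population, and a few loci supplied most of their reads. Of the 32 members, 30 had at least 1 read in the 33 small RNA libraries and 29 in wild-type embryos, while miR394b-3p and miR169b-3p had none in any library. A mean of at least 5 RPM was reached by 12 members in some wild-type stage and by a further 11 only in leaf or floral bud. Over the wild-type embryo libraries, miR390a-3p held 30.8% and miR168a-3p 25.7% of the summed level of all members, and the top 5 members held 76.2%. Only miR168a-3p was detected in all 24 wild-type libraries.

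**Figure D1:**
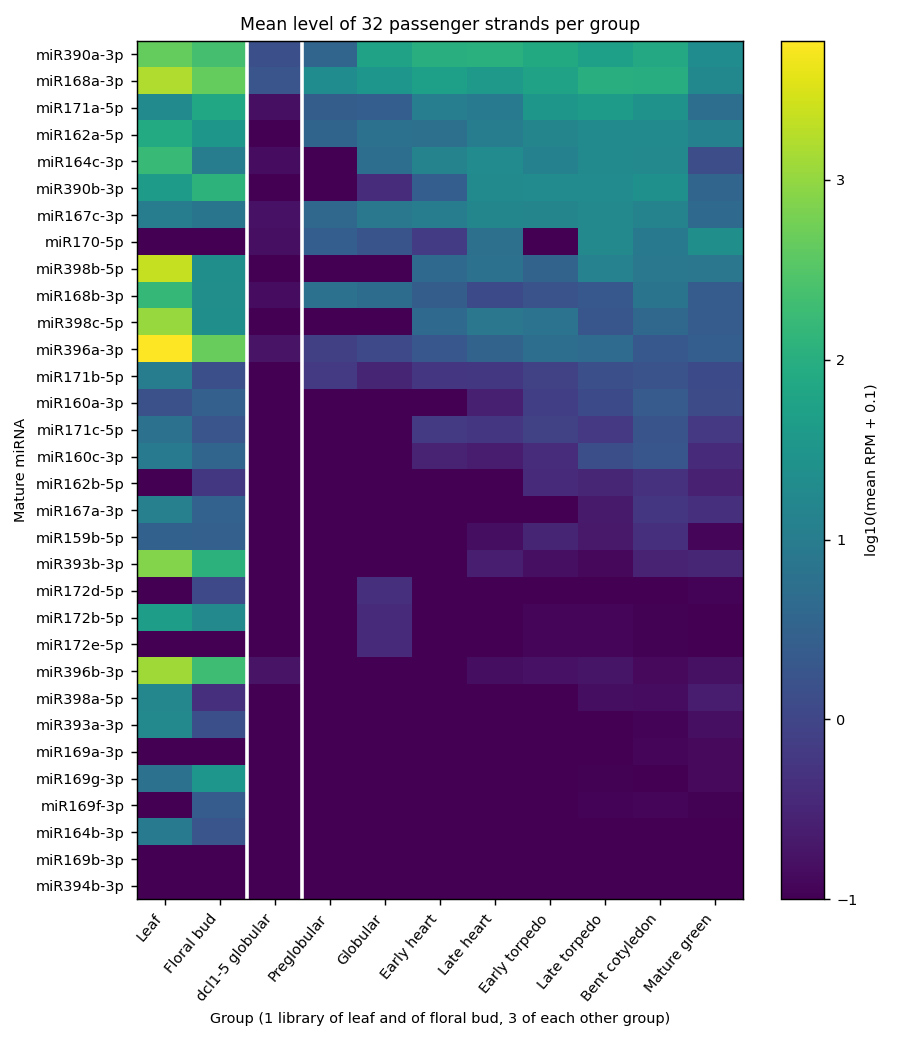
Mean level of each of the 32 passenger strands (rows) in each group (columns), coloured by log10(mean RPM + 0.1), with 1 library of leaf and of floral bud and 3 of each other group. Leaf held the highest mean for 19 members and floral bud for 7, and the darkest cells are groups without reads.

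The summed level of the members followed the embryonic stages. It was 63.9, 50.0 and 16.1 RPM in the preglobular libraries, 80.1, 136 and 140 RPM in globular libraries, 192, 223 and 195 RPM in early heart and 226, 274 and 235 RPM in late heart embryos. It reached 233, 271 and 240 RPM in early torpedo, 296, 341 and 297 RPM in late torpedo and 344, 297 and 290 RPM in bent cotyledon, before mature green embryos with 94.2, 131 and 96.1 RPM. No mature green library reached the lowest level of any library from early heart to bent cotyledon. The floral bud library had 1835 RPM and the leaf library 13876 RPM. This course over the stages was not particular to the members. Their other arms averaged 2355 RPM in preglobular, 11345 RPM in late torpedo and 5553 RPM in mature green embryos. All mature miRNAs together averaged 26504, 63269 and 35685 RPM at the same stages. Members averaged between 1.86% and 3.41% of the level of both arms over the 8 stages.

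The dcl1-5 embryos were compared with wild-type globular embryos to ask how far passenger strands depended on DCL1. The DCL1 transcript (AT1G01040) had 0.0226, 0.0359 and 0.0268 TPM (a length-scaled transcript level) in the 3 dcl1-5 mRNA-seq libraries. Wild-type mRNA-seq was not analysed here, so these values cannot check the labels of the small RNA libraries. Passenger strands of miR390, miR168, miR167, miR164 and miR162 were nearly lost. The members summed to 4.78, 3.68 and 2.00 RPM in dcl1-5 embryos, against 80.1, 136 and 140 RPM in wild-type globular embryos. All mature miRNAs together were at 316, 207 and 426 RPM in dcl1-5 embryos, against 18665, 23459 and 35060 RPM in wild-type globular embryos, so the members fell within a general loss. They made up 6.52%, 9.23% and 2.54% of the reads of both arms of their loci in dcl1-5 embryos, against 2.71%, 3.19% and 2.43% in wild type.

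The most abundant member, miR390a-3p, had 1.16, 1.81 and 1.07 RPM in dcl1-5 embryos, against 27.3, 55.8 and 85.2 RPM in wild type. For miR168a-3p the levels were 3.22, 1.53 and 0.40 RPM in dcl1-5 embryos, against 23.9, 54.2 and 17.7 RPM in wild type. Every dcl1-5 library was below every wild-type library for both. On average miR390a-3p was 41.7-fold lower in dcl1-5 embryos (log2 change -5.38, standard error 0.86, edgeR adjusted p = 0.00249) and miR168a-3p 18.6-fold lower (log2 change -4.20, standard error 1.10, edgeR adjusted p = 0.0142).

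The 23-base miR167c-3p had 0, 0.0695 and 0.133 RPM in dcl1-5 embryos, against 5.64, 6.43 and 11.7 RPM in wild type. The groups did not overlap, and the mean was 117-fold lower in dcl1-5 (log2 change -7.02, edgeR adjusted p = 0.00806). miR164c-3p had 0, 0 and 0.133 RPM in dcl1-5 and 1.67, 1.90 and 11.9 RPM in wild-type embryos, a 116-fold lower mean (edgeR adjusted p = 0.0169). miR168b-3p was found in a single dcl1-5 library, at 0.139 RPM, and had 3.96, 4.54 and 5.77 RPM in wild type (103-fold lower, edgeR adjusted p = 0.0113). No read of miR162a-5p was found in dcl1-5 embryos, whereas wild-type libraries had 9.79, 5.46 and 2.90 RPM. Set against a floor of 3 reads over the dcl1-5 libraries together, miR162a-5p was at least 105-fold lower (edgeR adjusted p = 0.00516), a bound of 44.2-fold without dcl1-5 replicate 1, the deepest of the 3.

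For miR171a-5p, 0.0332, 0.0695 and 0.0666 RPM were assigned in dcl1-5 embryos, against 0, 3.68 and 4.14 RPM in wild type, so the groups overlapped although the test was passed (edgeR adjusted p = 0.0474). Its reads are shared with the identical miR170-5p, and the sum of both was 0.0663, 0.139 and 0.133 RPM in dcl1-5 and 4.89, 3.68 and 4.14 RPM in wild-type embryos. Summed in this way, the shared strand was 37.6-fold lower in dcl1-5 without overlap (edgeR adjusted p = 0.00234 in the table with identical sequences summed, in which 65.8% of entries were lower). miR396a-3p, with 0.0995, 0 and 0.133 RPM in dcl1-5 and 1.18, 1.90 and 0.0382 RPM in wild-type embryos, did not pass the test (edgeR adjusted p = 0.126), nor did miR170-5p taken by its own locus (edgeR adjusted p = 0.140).

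In all, 9 members were abundant enough to be tested, of which 7 were lower in dcl1-5 embryos, against 65.3% of all mature miRNAs tested, and none was higher, at an edgeR adjusted p or an unadjusted p under 0.05. Of the 13 other arms tested, 7 were lower. The median log2 change was -5.93 over the members, -5.35 over the other arms and -6.03 over all mature miRNAs tested, so the share of members that fell was near that of miRNAs at large. Members other than miR390a-3p and miR168a-3p passed the filter of 0.5 RPM only through the wild-type libraries, so for them a higher level in dcl1-5 could hardly be found. Without that filter, 7 of 15 members and 61 of 193 miRNAs were lower, and 0 were higher. These changes are relative to all genome-matching reads. Scaled instead to miRNA reads, 0 members were called lower by either edgeR with TMM factors (median of all miRNAs -0.80) or DESeq2 (median 0.05), with log2 changes for miR390a-3p of -0.08 and 1.09, for miR168a-3p of 0.94 and 2.46, and for miR171a-5p of -0.76 and 0.51. Without replicate 3 of both genotypes, miR171a-5p and miR168b-3p no longer passed, and without replicate 2, miR168a-3p did not (edgeR adjusted p = 0.192, 0.0634 and 0.135).

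**Figure D2:**
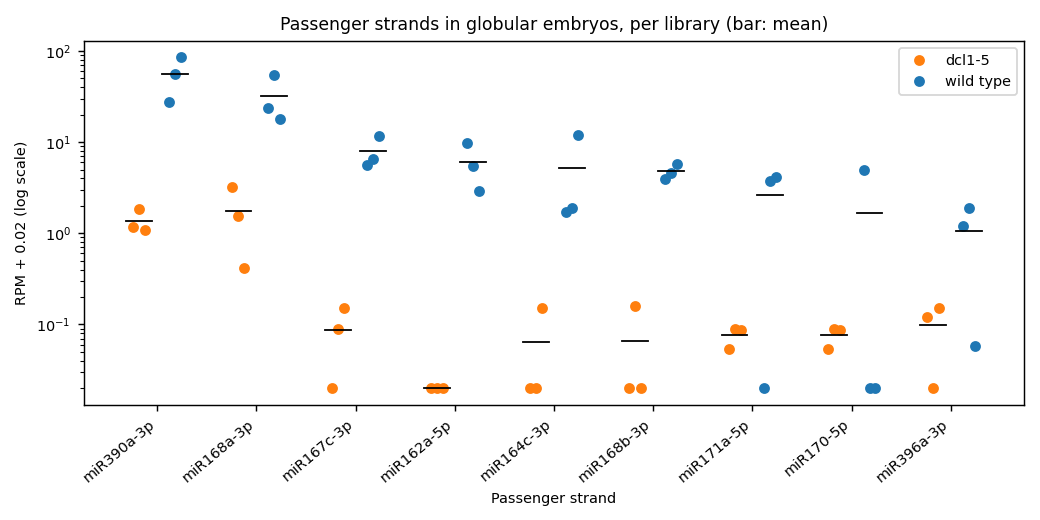
Levels of the 9 passenger strands tested between genotypes, in RPM + 0.02 on a log scale, with 1 point per library (3 dcl1-5, 3 wild-type) and a bar at the mean. For miR390a-3p, miR168a-3p, miR167c-3p, miR162a-5p, miR164c-3p and miR168b-3p, every dcl1-5 point lies below every wild-type point, and points at the bottom edge have no reads.

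Wild-type stages were next compared by phase: the 5 transition stages (15 libraries; early heart up to bent cotyledon) with the pre-cotyledon stages preglobular and globular (6 libraries). Passenger strands were generally higher in the transition stages. Of the 15 members tested, 11 were higher, against 53.6% of all mature miRNAs tested, and 1 was lower, against 11.3%. The other arms of the same loci gave 11 higher and 1 lower of 22 tested. The median log2 change was 2.49 over the members, 2.28 over the other arms and 1.84 over all miRNAs.

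As assigned by locus, strands of the same family differed in when they appeared. miR390a-3p was already present in globular embryos, at 27.3, 55.8 and 85.2 RPM, was highest on average in late heart embryos, at 94.1, 135 and 94.6 RPM and was between 42.4 and 85.2 RPM in later transition libraries. miR390b-3p had 0 RPM in every preglobular library, 0.124, 0.230 and 0.535 RPM in globular libraries, 0.481, 3.00 and 4.39 RPM in early heart and 19.6, 20.3 and 14.7 RPM in late heart embryos. It remained at 13.2 to 31.3 RPM up to the bent cotyledon stage. The lowest miR390b-3p level from late heart onward in the transition stages was thus above every earlier library, whereas the level of miR390a-3p in globular embryos overlapped that of later stages. Both strands had fractional read numbers over the wild-type embryos (24230.5 for miR390a-3p and 4901.49 for miR390b-3p), so some reads were divided among loci. The part of that division in the difference between these strands was not tested.

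Averaged by phase, miR390b-3p had 17.0 ± 8.73 RPM in transition stages (SD, n = 15) and 0.148 ± 0.211 RPM in pre-cotyledon stages (SD, n = 6), a 115-fold higher mean (log2 change 8.16, edgeR adjusted p = 1.67e-08). For miR390a-3p the means were 81.7 ± 24.3 RPM in transition and 29.8 ± 34.3 RPM in pre-cotyledon stages, 2.74-fold higher in transition stages (log2 change 2.49, standard error 0.58, edgeR adjusted p = 0.00115). Folds between phases are ratios of mean RPM over libraries. The log2 changes and p-values come from a fit that weights stages equally on the log scale, so they need not match the folds. When libraries were fitted as 1 group per phase, an alternative added with the data in view, 11 of 15 members were higher (52.3% of all miRNAs) and 0 lower (8.61%), but miR390a-3p did not pass (log2 change 1.45, edgeR adjusted p = 0.0779).

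miR164c-3p had no reads in the preglobular libraries, and 1.67, 1.90 and 11.9 RPM in globular embryos. It had between 9.58 and 25 RPM in every transition library, with a median of 17.2 RPM. Only globular replicate 3 entered the range of the transition libraries. The mean was 16.6 ± 4.37 RPM in transition stages and 2.58 ± 4.65 RPM in pre-cotyledon stages (SD, n = 15 and 6), 6.43-fold higher (log2 change 6.40, edgeR adjusted p = 2.12e-07). That log2 change weights the preglobular stage, without reads, as much as the globular stage.

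Some strands were found in no pre-cotyledon library and were present in later ones, among them those of miR398b, miR398c and miR171c. The identical miR398b-5p and miR398c-5p together had 3.72 to 16.8 RPM in transition libraries, with a median of 12.3 RPM, and 0 RPM in each of the 6 pre-cotyledon libraries. Against a floor of 3 reads over those 6 libraries, miR398b-5p was at least 236-fold higher in transition stages (edgeR adjusted p = 0.000225) and miR398c-5p at least 166-fold (edgeR adjusted p = 0.0173). Globular replicate 3 supplied 52374394 of the 104249495 reads behind this floor, and without it the bounds were 117-fold and 82.6-fold. Their other arms were present in these stages, as the miR398 guides averaged 82.6 RPM in the preglobular and 202 RPM in the globular stage. miR171c-5p had 0 to 1.66 RPM in transition libraries, with a median of 0.633 RPM, and was at least 27.2-fold higher than in pre-cotyledon stages by the same measure (edgeR adjusted p = 8.22e-05), or at least 13.5-fold without globular replicate 3. When each replicate number was left out in turn, miR398c-5p did not pass (edgeR adjusted p of 0.0696, 0.0755 and 0.9998 without replicates 1, 2 and 3).

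miR168a-3p, miR162a-5p and miR167c-3p were higher by smaller folds. miR168a-3p had a lowest level of 25, a median of 70.7 and a highest level of 118 RPM in transition libraries, against 27.9, 26.7 and 6.83 RPM in preglobular and 23.9, 54.2 and 17.7 RPM in globular libraries, so the phases overlapped. Its mean was 2.58-fold higher in transition stages (67.6 ± 30.4 against 26.2 ± 15.8 RPM, SD; log2 change 1.30, edgeR adjusted p = 0.00169). miR162a-5p was 2.93-fold higher (log2 change 1.46, edgeR adjusted p = 0.0104) and miR167c-3p 2.43-fold higher (14.3 ± 3.01 against 5.89 ± 3.95 RPM; log2 change 1.33, edgeR adjusted p = 0.0123). Scaled to miRNA reads by TMM or DESeq2, the changes of miR168a-3p, miR162a-5p and miR167c-3p were smaller and none passed (log2 changes of 0.74 and 0.35, 0.87 and 0.40, and 0.81 and 0.37). Without replicate 2, miR162a-5p and miR167c-3p did not pass (edgeR adjusted p = 0.0519 and 0.170).

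The shared strand of miR170 and miR171a also rose. Summed over both loci it had 31.0 ± 19.1 RPM in transition and 4.62 ± 2.28 RPM in pre-cotyledon stages (SD, n = 15 and 6), 6.71-fold higher (edgeR adjusted p = 3.66e-06 with identical sequences summed). The 3 late torpedo libraries were highest, with 67.2, 52.7 and 59.7 RPM. By locus, reads moved between miR170-5p and miR171a-5p from replicate to replicate, as in early torpedo embryos, where miR171a-5p had 20.3, 38.7 and 40.8 RPM and miR170-5p 0 RPM in each. By its own locus, miR171a-5p did not pass without replicate 2 or 3 (edgeR adjusted p = 0.0535 and 0.109). miR396a-3p, at 3.40 RPM in transition and 0.876 RPM in pre-cotyledon stages on average, passed the test (3.88-fold, edgeR adjusted p = 0.0297) but not when scaled by TMM or without replicate 2 or 3 (edgeR adjusted p = 0.118, 0.110 and 0.155).

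miR168b-3p went the other way, with 2.77 ± 2.45 RPM in transition and 5.32 ± 4.25 RPM in pre-cotyledon stages (SD, n = 15 and 6; log2 change -1.25, edgeR adjusted p = 0.0315). This was opposite to miR168a-3p, but the levels overlapped, and 8 of 14 alternatives did not call it, among them limma, 20- to 22-base reads and leaving out replicate 1 or 2. Passenger strands of miR160a and miR160c, whose guides target auxin response factors, were absent from all preglobular and globular libraries and averaged 0.836 and 0.740 RPM in transition stages. Because miR160a-3p had no read at several stages, the fit by stage gave it no finite value, whereas 1 group per phase did (edgeR adjusted p = 0.000237). Libraries of globular and earlier embryos had been amplified over a higher, overlapping range of PCR cycles than those of later embryos; the number used for each library is not given in the sources used here, and its part in these differences was not tested. Without preglobular replicate 3, an alternative also added later, 11 of 16 members were higher and 1 lower, with miR396a-3p no longer passing (edgeR adjusted p = 0.0558). Of all 149 miRNAs tested in that fit, 83 were higher and 13 lower.

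Mature green embryos (3 libraries) were then compared with the transition stages (15 libraries). Of the 15 members tested, 4 were lower in mature green embryos, against 22.5% of all mature miRNAs tested, and 2 were higher, against 13.2%. The other arms gave 3 lower and 3 higher of 22 tested. The median log2 change was -0.35 over the members, -0.36 over the other arms and -0.04 over all miRNAs.

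The largest decrease among the members tested was that of miR164c-3p, which had 0.707, 1.92 and 1.04 RPM in mature green embryos and at least 9.58 RPM in every transition library. Its mean was 13.6-fold lower in mature green embryos (log2 change -3.73, standard error 0.62, edgeR adjusted p = 0.00017), and it was called under each of the 14 alternatives. miR168a-3p, with 17.5, 19.7 and 13.2 RPM, was below the lowest transition library, at 25 RPM (4.02-fold lower, log2 change -1.90, edgeR adjusted p = 0.00251). miR167c-3p, with 3.80, 4.87 and 3.93 RPM, likewise lay below the lowest transition level of 8.79 RPM (3.41-fold lower, log2 change -1.75, edgeR adjusted p = 0.0279).

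The miR390 strands were both low in mature green embryos. miR390b-3p had 2.24, 4.78 and 3.41 RPM, below every transition library from late heart onward but not below those of early heart (4.88-fold lower, log2 change -1.97, edgeR adjusted p = 0.00772). miR390a-3p had 12.1, 23.9 and 26.8 RPM, below every transition library, and was 3.90-fold lower, but the test was not passed (log2 change -1.92, edgeR adjusted p = 0.0562). It was passed in the fit with identical sequences summed (edgeR adjusted p = 0.00943). The annotated sequence of miR390a-3p is unique, so its own reads were the same in both fits and only other entries differed.

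Of the increases, that of miR170-5p, at 23.7 RPM in mature green and 6.42 RPM in transition stages on average (edgeR adjusted p = 0.0362), was not seen in the sum with the identical miR171a-5p. That sum was 25.5, 38.6 and 22.2 RPM in mature green embryos, inside the transition range of 3.60 to 67.2 RPM (edgeR adjusted p = 0.811). miR160a-3p had 1.15, 1.54 and 0.750 RPM in mature green embryos and 0 to 3.20 RPM in transition libraries, with all 3 early heart libraries at 0 (1.37-fold higher mean, log2 change 2.00, edgeR adjusted p = 0.00893). Fitted as 1 group per phase, neither increase passed, as 3.97% of all miRNAs were higher (edgeR adjusted p = 0.459 and 0.909), and of the decreases those of miR168a-3p and miR164c-3p did (edgeR adjusted p = 0.0189 and 0.0336). When replicate numbers were left out in turn, no member was called higher, while 2 to 3 were called lower. Of all miRNAs, 143 to 155 were tested in these fits, with 14 to 19 called higher and 19 to 22 lower. miR167c-3p was lost without replicate 1 or 2 (edgeR adjusted p = 0.159 and 0.178), miR390b-3p without replicate 2 or 3 (0.0747 and 0.0503) and miR168a-3p without replicate 1 (0.0652). Scaled by DESeq2, under which the median of all miRNAs was 1.23, 2 of 15 members were lower and 4 higher. Under that scaling, 16 of all 151 miRNAs were lower and 70 higher.

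To ask how often the strand named passenger had fewer reads, reads of both arms were compared. The arms differ in sequence, and adapters were ligated to each strand before sequencing. How evenly different sequences were recovered was not tested, so read numbers need not give the relative amounts of the arms. Of 28 members with at least 3 reads over the wild-type embryos, 15 had more reads than the other arm of their locus. For 11 of these 15, at least 1 arm has a sequence found at several loci, so the comparison by locus depends on how shared reads were divided. The 4 with both arms unique were miR167c-3p (4668 reads against 381 of its other arm, or 92.5%), miR396a-3p (1112 against 353, 75.9%), miR164c-3p (4678 against 3439, 57.6%) and miR169a-3p, which had 4 reads and none of its other arm. Among the other 11, the passenger share was 70.2% for miR390a-3p, 79.8% for miR390b-3p, 68.9% for miR168b-3p, 99.8% for miR170-5p and 87.4% for miR171a-5p, and the remaining 6 (of miR169g, miR172b, miR172d, miR172e, miR393a and miR393b) had 44 reads or fewer. Below their other arm were miR171b-5p (41.8%), miR168a-3p (26.9%), miR171c-5p (21.98%), miR160c-3p (19.6%), miR160a-3p (13%), miR162a-5p (5.85%) and, at under 4%, miR398b-5p, miR398c-5p, miR398a-5p, miR396b-3p, miR167a-3p, miR159b-5p and miR162b-5p. With at least 3 reads required, the passenger strand held more reads at 12 loci in leaf, where 22 members had that many, and at 14 in floral bud, where 25 had. It did so at 2 loci in dcl1-5 embryos, where only 4, 2 and 2 members had at least 3 reads in replicates 1, 2 and 3. The share over other loci is not given here.

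Reads were therefore also summed by family, so that the division of shared reads among its loci no longer mattered. These sums set the member strands against the guides of all loci of the family, which are more numerous than the members for miR167 (4 guides, 2 members), miR164 (3 and 2), miR160 (3 and 2) and miR159 (3 and 1), whereas both numbers are equal for miR390, miR168, miR396, miR398, miR162 and miR170/miR171. In the miR390 family, passenger strands made up 98.2% of family reads in globular, 85.0% in early heart, 85.9% in late heart, 74.7% in early torpedo, 67.0% in late torpedo, 63.8% in bent cotyledon and 42.0% in mature green embryos. The level of the miR390 guide was 1.07, 18.5, 20.5, 33.6, 34.7, 58.0 and 32.9 RPM at the same stages. Passenger strands thus had more reads than the guide at every stage from globular to bent cotyledon. The mature green libraries spread widely, at 28.9%, 63.7% and 39.2%, and against transition stages the log2 ratio of passenger to guide was lower (change -2.07, standard error 0.54, edgeR adjusted p = 0.00204). In dcl1-5 embryos passenger strands had 69 reads and the guide 22, a share of 75.8%.

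The miR167 family shifted furthest over the stages. Its passenger strands, nearly all miR167c-3p, held 77.2% of family reads in globular, 49.3% in early heart, 50.4% in late heart, 22.7% in early torpedo, 13% in late torpedo, 4.09% in bent cotyledon and 1.59% in mature green embryos. Their own level hardly moved from early heart to bent cotyledon, with stage means between 10.5 and 17.4 RPM, while the guides averaged 10.8 RPM at early heart and 324 RPM at bent cotyledon. Between these stages the level that changed was thus mainly that of the guides. In mature green embryos the guides had 285 RPM and the passenger strands 4.57 RPM, against 324 and 13.9 RPM in bent cotyledon embryos, so at this step the passenger strands differed more. Against pre-cotyledon stages, the log2 ratio was lower in transition stages (edgeR adjusted p = 2.65e-10), and against these it was lower again in mature green embryos (change -4.08, standard error 0.52, edgeR adjusted p = 5.19e-07). No guide read was found in preglobular embryos, so no fold is given for the first change.

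At the miR167c locus alone, miR167c-3p exceeded miR167c-5p in each of the 23 wild-type libraries that had reads of either. The ratio of 3p to 5p was 7.56 in early heart, 28.8 in late heart, 18.6 in early torpedo, 10.5 in late torpedo, 5.67 in bent cotyledon and 7.78 in mature green embryos, and miR167c-5p was absent before. In floral bud it was 0.317 and in leaf 0.368, so the arm with more reads differed between embryos and both single libraries of other tissues.

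**Figure D3:**
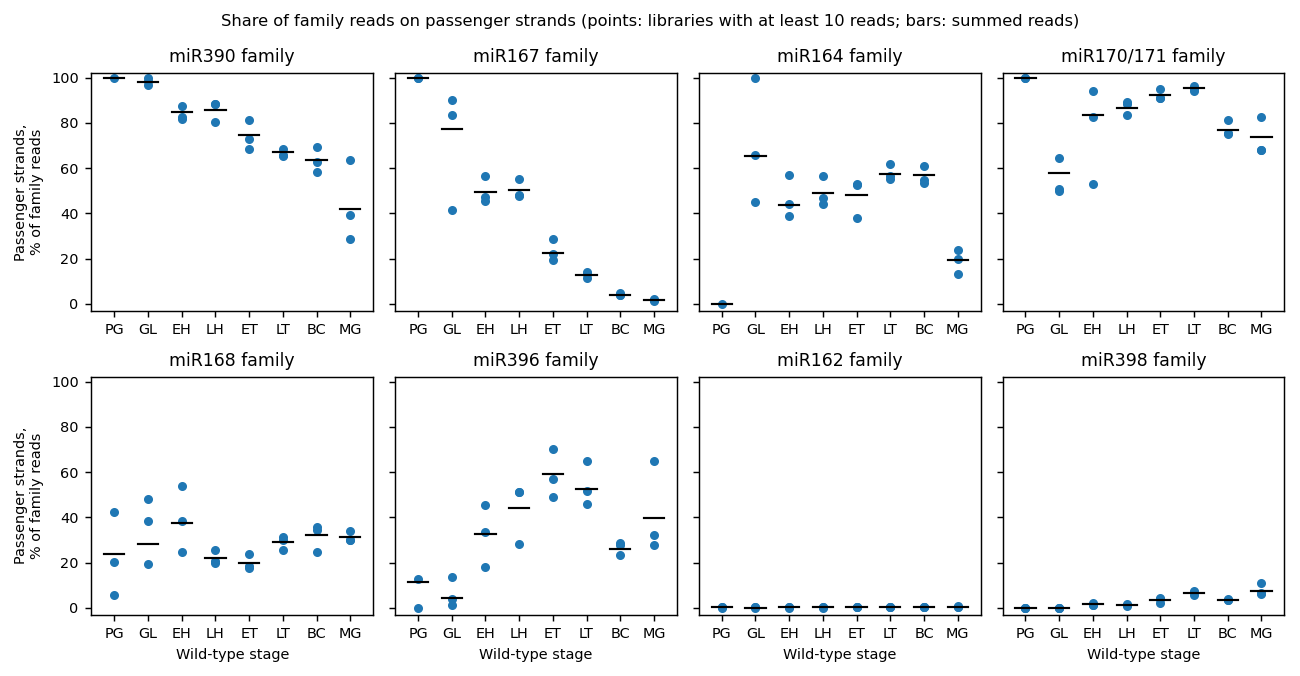
Share of family reads on passenger strands in 8 families over the wild-type stages, abbreviated by their initials and in developmental order from preglobular (PG) to mature green (MG); points are libraries with at least 10 family reads and bars are summed reads of a stage. The share in the miR167 family was 77.2% in globular and 1.59% in mature green embryos, whereas that in the miR162 family lay between 0.112% and 0.391% throughout.

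Other families showed other patterns. The miR164 strands held 65.4% of family reads in globular embryos, between 43.8% and 57.4% in transition stages and 19.4% in mature green embryos (change in log2 ratio against transition stages -2.19, standard error 0.58, edgeR adjusted p = 0.00204). Those of miR170/miR171 held between 83.7% and 95.3% from early heart to late torpedo and 76.8% in bent cotyledon, and were lower in mature green embryos, at 73.7% (change -1.46, standard error 0.52, edgeR adjusted p = 0.0182). Passenger strands thus held more reads than the guides in the miR170/miR171 family at every stage, where the guides had 2.42 to 11.7 RPM from globular embryos onward. In the miR396 family the share was 4.45% in globular embryos, 59.2% in early torpedo and 26.0% in bent cotyledon, with a higher log2 ratio in transition than in pre-cotyledon stages (change 3.36, standard error 0.59, edgeR adjusted p = 9.07e-06). Over the same span the miR396 guides were at 20.2 ± 25.8 RPM in globular embryos (SD, n = 3) and at 3.77 to 5.57 RPM in transition stages.

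The miR168 share stayed between 19.8% and 37.7% at all stages, and its log2 ratio, summed by family, passed the test in none of the 3 comparisons. The miR398 share, at 0% in pre-cotyledon stages, was between 1.16% and 6.50% in transition stages and 7.61% in mature green embryos, with a higher ratio at both steps (edgeR adjusted p = 5.91e-14 and 0.000241). At the opposite end, miR162 and miR159 strands stayed below 0.4% of family reads in every stage. The miR159 strand, miR159b-5p, from a family whose guide targets MYB transcription factors, had 42 reads in wild-type embryos against 802603 of its other arm.

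Tested by locus, as first set out, few changes in arm ratio were called. Between transition and pre-cotyledon stages, 7 members could be tested, of which miR167c-3p had a lower ratio (edgeR adjusted p = 2.67e-08), against 16.7% of all loci tested, and miR398b-5p a higher ratio (edgeR adjusted p = 0.0394), against 12.5%. Left out in turn, each of the replicate numbers 1, 2 and 3 ended the call of miR398b-5p, and without preglobular replicate 3 it was not called either (edgeR adjusted p = 0.0562). Between mature green and transition stages, 0 of 11 members passed by edgeR, against 10.7% of loci lower and 3.57% higher, with 1 member at an unadjusted p under 0.05. In dcl1-5 against wild-type globular embryos, 0 of 3 members and 0% of 14 loci passed, with 0 of the members at an unadjusted p under 0.05. Summed by family, 1 of the 5 families tested passed in dcl1-5, miR167, whose ratio was lower (2 passenger and 54 guide reads in dcl1-5, against 817 and 241 in wild type; edgeR adjusted p = 0.0272; 21.4% of all families and loci so tested were lower). In the same summed tests, 25% of entries were lower and 20% higher in transition stages, and 39.1% lower and 13% higher in mature green embryos.

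Read length separated a few members from the rest. Of 25 members with at least 10 reads in wild-type embryos, 19 had under 5% of their reads at 23 to 24 bases, and the median share was 0.548%. It was 0.197% over 23 other arms and 3.26% over 253 other mature miRNAs, of which 22.9% had a majority of 23- to 24-base reads. Only miR167c-3p, miR171c-5p and miR167a-3p had such a majority among the members.

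For miR167c-3p, 85.8% of 4668 reads had the annotated 23 bases and 8.70% had 24. Its 23- to 24-base share was between 89.7% and 100% in summed reads of the stages from preglobular to bent cotyledon, 85.0% of 20 reads in floral bud and 57.1% of 7 reads in leaf. In contrast, miR171c-5p is annotated at 21 bases, yet 80.8% of its 240 reads had 24. miR167a-3p, also annotated at 21 bases, had 55.4% of its 74 reads at 24 bases. Neither had a read in preglobular or globular embryos, so both long forms were seen only from later stages.

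Among the strands of mostly shorter reads, miR390a-3p had 73.2% of its reads at 21 and 26.5% at 20 bases, while miR390b-3p, annotated at 20 bases, had 56.9% at 21 and 42.9% at 20. The 23- to 24-base share was 22.5% of 1112 reads for miR396a-3p. In late torpedo embryos that share was 10.2%, 11.9% and 21.7%, in bent cotyledon embryos 35.4%, 30.3% and 25.6%, and in mature green embryos 50.0%, 49.3% and 45.7%. It was 3.78% in floral bud and 4.83% in leaf, where miR396a-3p was most abundant. miR168a-3p had 17.7%, 19.3% and 24.1% of its reads at 23 to 24 bases in mature green embryos, above the 5.60% to 6.15% of the late torpedo libraries. The mature green range was not set apart from all earlier libraries. Preglobular replicate 1, at 20.2% of 287 reads, lay within it, while preglobular replicates 2 and 3 had 0%. Bent cotyledon libraries had 5.97%, 9.64% and 7.65%.

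Few of these shares could be tested, and no member was called in the comparisons by stage. Between mature green and transition stages miR396a-3p and miR390b-3p had too few reads in a stage or a length class to be tested, and 0 of 6 members were called by edgeR (5.66% of all miRNAs tested were higher and 5.66% lower), with miR168a-3p at an unadjusted p under 0.05 (log2 change in the ratio of long to short reads 1.81, edgeR adjusted p = 0.123). With 1 group per phase 0 of 12 members were called higher (2.54% of all were), including miR396a-3p, with a log2 change of 2.38 (standard error 1.11, edgeR adjusted p = 0.246). Between transition and pre-cotyledon stages 0 of 3 were called, against 14.6% lower and 7.32% higher, with miR167c-3p at an unadjusted p under 0.05, while 1 group per phase called 1 of 9 members lower, miR162a-5p (6.74% of all). The pre-cotyledon reads of miR162a-5p at 23 to 24 bases all came from a single library, globular replicate 3 (56 of 152 reads). In dcl1-5 against wild-type globular embryos only miR168a-3p could be tested, and it was not called (0% of 27 miRNAs were). Its 23- to 24-base reads numbered 50 of 97 in dcl1-5 replicate 1, 0 of 22 in replicate 2 and 0 of 3 in replicate 3.

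**Figure D4:**
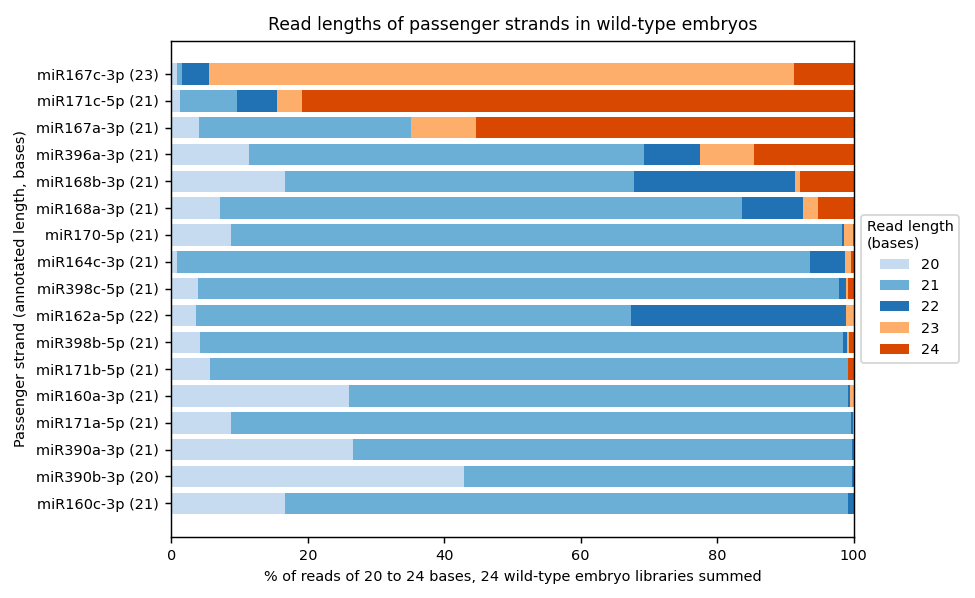
Composition of the reads of 17 passenger strands by length (20 to 24 bases, colours), as a percentage of reads summed over the 24 wild-type embryo libraries, with the annotated length in parentheses. The 23- and 24-base reads (orange and red) are the majority for miR167c-3p, miR171c-5p and miR167a-3p.

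Finally, the single leaf and floral bud libraries were set beside the 6 late embryo libraries (3 bent cotyledon, 3 mature green). With 1 library per tissue no test was possible, and a strand was called different past a 4-fold difference from the mean of the late embryos on RPM + 0.5. Compared were miRNAs with a mean of at least 1 RPM over the late embryo, leaf and floral bud libraries together. Strands nearly absent from late embryos, such as miR164b-3p (0 RPM) and miR393a-3p (0.0347 RPM on average), passed this filter only through leaf or floral bud. Such strands could not be called lower, which raises the counts of higher members and the median folds. In leaf, 19 of 24 members compared were higher, against 42.5% of all mature miRNAs, and 1 was lower, against 13.4%. In floral bud, 12 were higher, against 39.2%, and 1 was lower, against 14.5%. The lower member was miR170-5p in both, at 0 RPM, where the identical miR171a-5p had 18.9 RPM in leaf and 72.0 RPM in floral bud. The median fold over the members was 15.2 in leaf and 4.13 in floral bud, against 8.97 and 1.62 for the 23 other arms and 3.43 and 2.27 for all 186 miRNAs.

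The miR396 strands differed most. miR396a-3p had 5931 RPM in leaf and 467 RPM in floral bud, against 1.47 to 3.75 RPM in the late embryo libraries. miR396b-3p had 1224 RPM in leaf and 193 RPM in floral bud, against 0 to 0.107 RPM. Together with miR398b-5p and miR168a-3p they made up most of the leaf total, of which miR396a-3p held 42.7%, miR398b-5p 16.0%, miR168a-3p 11.3% and miR396b-3p 8.82%. At the miR396a locus the 3p strand exceeded the 5p strand 15.2-fold in leaf and 3.69-fold in floral bud, while over the family passenger strands held 60.2% of reads in leaf and 17.9% in floral bud.

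Other strands rare in embryos were abundant in these tissues. miR393b-3p, a strand known in Arabidopsis to associate with AGO2, had 777 RPM in leaf and 117 RPM in floral bud and at most 0.303 RPM in any wild-type embryo library. Its other arm was not found in embryos, and passenger strands of miR393 had 546 reads against 2 of the guides in leaf (99.6%) and 341 against 4 in floral bud (98.8%). miR398b-5p and miR398c-5p together had 3326 RPM in leaf and 46.7 RPM in floral bud, and passenger strands held 35.1% and 78.2% of miR398 reads. miR169g-3p, from a family whose guides target NF-YA transcription factors, had 31.9 RPM in floral bud, 5.82 RPM in leaf and at most 0.0457 RPM in late embryos. miR172b-5p, from a family whose guides target AP2-like factors, had 45.1 RPM in leaf and 17.6 RPM in floral bud, against at most 0.020 RPM in late embryos.

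A further set was rare in embryos and seen mainly in leaf. miR393a-3p had 17.5 RPM, miR398a-5p 16.0 RPM, miR167a-3p 11.6 RPM and miR171b-5p 10.2 RPM in leaf, against stage means of at most 1.56 RPM in embryos. miR164b-3p, with 8.73 RPM in leaf and 1.73 RPM in floral bud, had no read in wild-type or dcl1-5 embryos. miR169a-3p, miR169f-3p, miR172d-5p and miR172e-5p had at most 2.32 RPM on average in any stage, in dcl1-5 embryos, in leaf or in floral bud.

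The strands that led in embryos differed among themselves in these tissues. miR168a-3p had 1571 RPM in leaf and 440 RPM in floral bud, against 13.2 to 118 RPM in late embryos. miR390a-3p had 439 RPM in leaf and 230 RPM in floral bud, against 12.1 to 80.03 RPM. miR164c-3p had 167 RPM in leaf and, in floral bud, 10.03 RPM, which lay within its late embryo range of 0.707 to 19.3 RPM. miR167c-3p, with 10.2 RPM in leaf and 6.92 RPM in floral bud, lay within its late embryo range of 3.80 to 14.6 RPM in both. The leaf library was the shallowest of these, and a level of 5 RPM there rests on 3 to 4 reads.

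**Figure D5:**
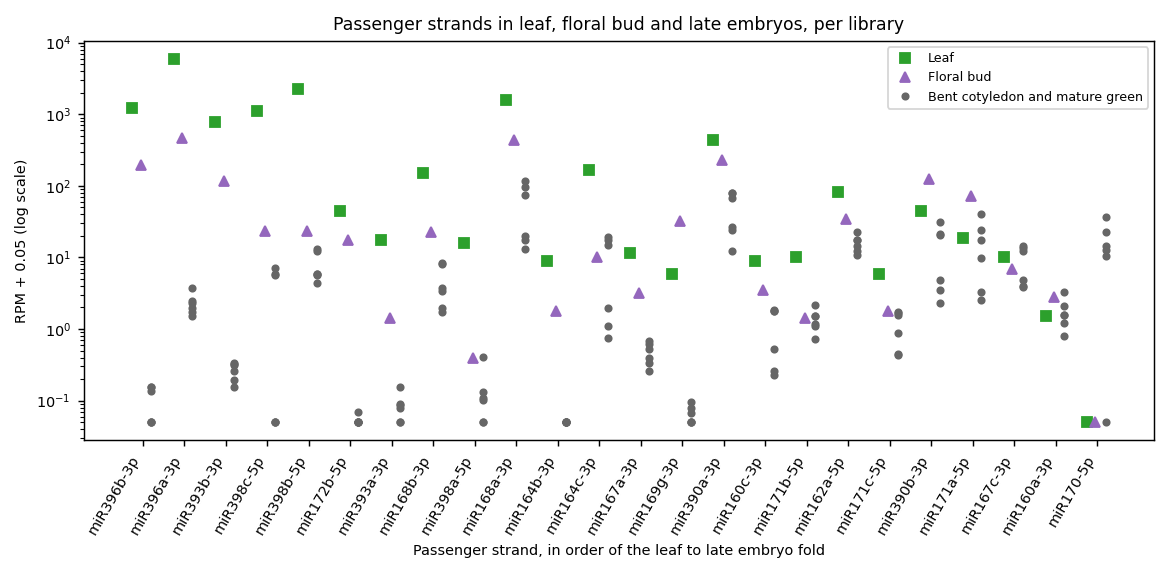
Levels of the 24 passenger strands compared between tissues, in RPM + 0.05 on a log scale: leaf (squares, 1 library), floral bud (triangles, 1 library) and late embryos (dots, 3 bent cotyledon and 3 mature green libraries), ordered by the fold of leaf over late embryos. miR396b-3p, miR396a-3p and miR393b-3p stand 1224, 5931 and 777 RPM high in leaf, and miR170-5p has no reads in leaf or floral bud.

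Passenger strands could also direct cleavage, and the nanoPARE tables list candidate cleavage sites for mature miRNAs with a pairing score and an adjusted p-value set by the authors' software. In 33 libraries, 377 of 7148 entries belonged to members, at 97 distinct sites of 13 members. Of the members' entries 5.84% were significant at an adjusted p under 0.05, as deposited, against 15.1% of all entries. A single site of a member was significant in at least 2 replicates of a group, out of 84 such sites among 1735 of all miRNAs.

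That site was assigned to miR390a-3p, at position 887 of transcript AT1G08125.3, with a pairing score of 5 (a lower score means better pairing). It was listed in all 33 libraries and was significant in 3 of 3 preglobular, 1 of 3 globular, 3 of 3 early heart and 3 of 3 late heart libraries, in 2 of 3 early torpedo, late torpedo and mature green libraries and in 1 of 3 bent cotyledon libraries. Outside embryos it was significant in 1 of 3 xrn4-5 root and 2 of 3 xrn4-5 shoot libraries. Its level was 5.83 ± 1.15 RPM in preglobular embryos (SD, n = 3), in which miR390a-3p itself had 3.47 RPM on average, and 6.24 ± 2.61 RPM in late heart embryos. In dcl1-5 embryos, where it was significant in 0 of 3 libraries, the level was 3.06, 0.454 and 0.466 RPM, with a mean of 1.33 RPM against 1.66 RPM in wild-type globular embryos, and the groups overlapped (two-sided exact permutation p = 0.8, where 0.1 is the smallest possible). The significant entries at other sites were a site of miR398b-5p in AT1G80830.1 at position 1326, in 1 xrn4-5 root library, and a site of miR171c-5p in AT5G56200.1 at position 1307, in 1 xrn4-5 shoot library.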

How the data were processed

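Small RNA libraries of 18 to 30 bases were trimmed by the authors with Cutadapt and aligned to TAIR10 with STAR without mismatches. Reads with several matches were reassigned among their loci by a scheme the authors call rich-get-richer, so the levels of identical strands, and of similar strands that share reads, depend on that division. For each mature miRNA (miRBase21) and read length, the authors deposited an expected count and RPM per genome-matching reads; tool versions are not given in the sources used here. The nanoPARE tables deposited by the authors give RPM, a pairing score and an adjusted p-value per site, and the mRNA-seq tables an estimated count and TPM from kallisto. Fold changes in the nanoPARE tables were not used.

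Depth was the deposited count over the deposited RPM. Expected counts of 20 to 24 bases were rounded and tested with edgeR 4.0.16 (R 4.3.3; quasi-likelihood, robust) over all mature miRNAs with a mean of at least 0.5 RPM, scaled to genome-matching reads, with Benjamini-Hochberg adjustment at 0.05. Arm ratios and length shares were tested as arm-by-group or length-by-group terms with library as a factor, given at least 10 reads in 2 libraries of each group and 5 of each class. Stages were fitted separately and averaged by phase with equal weight on the log scale, whereas folds are ratios of mean RPM over libraries. Leaf and floral bud had 1 library each, and no test was run. Members given in full had a mean of at least 5 RPM in a group, and members were named for a test where they passed it; those named as not passing were chosen after their values were seen. Members, lists and tests were chosen with earlier results of these data known. Alternatives were limma 3.58.1, DESeq2 1.42.0, TMM, other filters and read lengths, summed sequences or families, a replicate block, and leaving out each replicate number. The steps were tested on simulated data. Floors of 3 reads cover counting error only, since reads carry no molecular identifiers. Python 3.11.15, pandas 2.3.3, scipy 1.17.1 and matplotlib 3.10.9 were also used. Wild-type mRNA-seq was not analysed here.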

Additional observations from a re-analysis of the deposited data

Results flagged for a closer look

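The tables also hold reads of 25 to 30 bases, which no comparison above uses. For miR167c-3p, these amounted to 25 reads over the wild-type embryo libraries, or 0.0599 RPM, beside 4668 reads of 20 to 24 bases. No such read was found in dcl1-5 globular embryos, where 3 reads would correspond to 0.0576 RPM over the 3 libraries, so the level lay only just above what a count of 0 allows there.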

How the results depend on the processing

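In dcl1-5, 7 members were lower by edgeR but 0 with TMM factors, 0 with DESeq2 and 2 of 2 tested with a minimum of 5 RPM, and 5 to 7 when a replicate number was left out. Log2 changes turned positive for miR390a-3p (1.09, DESeq2), miR171a-5p (0.51, DESeq2) and miR168a-3p (0.94, TMM; 2.46, DESeq2), scalings that remove a loss shared by most miRNAs. Between transition and pre-cotyledon stages, the 1 lower member became 2 with DESeq2 and 0 with limma at either pseudocount, without a filter, with a minimum of 5 RPM, with 20- to 22-base reads, with a replicate block or with 1 group per phase, and 0 to 1 without a replicate. The 11 higher members became 7 with TMM, and 6 to 11 without a replicate. The 1 lower arm ratio (miR167c-3p, called in all 4 alternatives that could test it) became 0, as untested, with at least 30 reads or 20- to 22-base reads, 3 with 1 group per phase, and 0 to 1 without a replicate; the 1 higher became 0 with a replicate block, 2 summed by family, 5 with 1 group per phase and 0 without any replicate or preglobular replicate 3. For length shares, 1 member was lower with 1 group per phase (miR162a-5p) and 0 to 1 higher without a replicate. In mature green embryos, the 4 lower members became 2 with DESeq2 or 1 group per phase and 2 to 3 without a replicate; the 2 higher became 4 with DESeq2, 1 with a minimum of 5 RPM, summed sequences or a replicate block, and 0 with 1 group per phase or without any replicate. Arm ratios summed by family gave 1 lower in dcl1-5, and in mature green embryos 4 lower and 1 higher; 1 group per phase gave 1 lower there. Length shares gave 1 higher with 24- against 21-base reads and 0 to 1 without a replicate. Requiring 1 replicate in place of 2 gave 3 cleavage sites. The cause of these changes was not tested. Leaf and floral bud counts stayed within 1.5 times throughout, and arm ratios in dcl1-5 could not be fitted at 30 reads.

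Replicate numbers were not used to pair the libraries in the main fits. Deviations of same-numbered dcl1-5 and wild-type globular libraries had a mean correlation of 0.180 (0.0491 to 0.306), with 2 of 3 pairs over 0.1. Differently numbered libraries had a mean of -0.0890. Those of wild-type stages had 0.0563, with 38 of 84 over 0.1, against -0.0279 for different numbers. With 3 pairs between the genotypes, it cannot be decided whether same-numbered libraries share an effect. With a replicate block, 6 members were lower in dcl1-5, 11 higher and 0 lower in transition stages, and 4 lower and 1 higher in mature green embryos. Of the single-member values under all alternatives, 276 kept their direction and call, 73 kept only their direction and 4 reversed. Preglobular and leaf values rest on few reads, and values of strands with about 3 reads or fewer are uncertain.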
